A study of Mus musculus with 24 samples.

Results

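Primary mouse microglia kept for 14 h with bafilomycin A1 (BafA1) were set against microglia kept for 14 h with the vehicle, dimethyl sulfoxide (DMSO). The comparison holds all 6 libraries labelled 14 h, 3 per treatment, of the 24 libraries in the study, and 12648 of the 56980 genes in the count table, those with enough counts to test. The study cultured wild-type (WT) mouse microglia with 50 nM BafA1 or an equal share of DMSO (0 nM BafA1) for 1, 7, 14 or 22 h and sequenced their RNA, with a vehicle group of its own at each time. The cells of both 14 h groups came from the cerebral cortex and hippocampus of neonatal mice of postnatal days 1 to 3. They grew as mixed glia on coated flasks, were shaken off on a heated orbital shaker and were seeded in a mixture of conditioned and fresh medium, so other glia carried along from the flasks could be in every library. The series' design calls the 3 replicates biological, but the labels give no sex and do not say whether replicates came from separate litters or flasks, and p-values therefore reflect only how much these libraries vary, which may be technical.

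BafA1 blocks the vacuolar proton pump (V-ATPase), which acidifies lysosomes, endosomes and other compartments of the cell. Lysosomes break down what a macrophage engulfs and what autophagy delivers, and acid is needed for their hydrolases, for the release of iron from transferrin and for the return of amino acids and cholesterol to the cytosol. Nutrient sensing at the lysosome surface controls the transcription factors TFEB, TFE3 and MITF, which drive lysosome genes through the so-called CLEAR element. Microglia are the resident macrophages of the brain and carry a heavy load of such breakdown.

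Values are CPM, the share of a library's counts scaled to a common total with trimmed-mean factors, listed in the order of replicates 1, 2 and 3. Changes are log2 of BafA1 over DMSO ± their standard error (SE), each from 3 libraries per treatment, and a gene is called, or said to rise or fall, when its Benjamini-Hochberg adjusted p from edgeR's quasi-likelihood test across all 12648 genes was below 0.05. The libraries held between 2116913 and 3994225 counts, the DMSO ones between 2116913 and 2958507 and the BafA1 ones between 3212405 and 3994225. They detected 19970 to 22082 genes, and 3 counts in 1 library corresponded to 0.751 to 1.42 CPM. The RNA integrity numbers on the labels lay between 9.6 and 9.9, and mitochondrial transcripts took 3.79% to 4.99% of the counts. The label of primary microglia was borne out by the markers: the 15 microglia identity genes summed to 12900, 12750 and 9500 CPM with DMSO and to 9101, 8245 and 6685 CPM with BafA1, and none was at 0 in all 6 libraries. Markers of oligodendrocyte precursors, astrocytes and neurons were present as well, at far lower sums, and moved with the treatment; they are described below with their values.

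After 14 h, 1526 genes had risen, 12.1% of those tested, and 1528 had fallen, also 12.1%. Counts over the gene lists below are to be read against these shares. Rises were smaller and in more abundant genes: the median change of the genes that rose was 0.86 and that of the genes that fell -1.39, with median levels of 5.74 and 4.02 log2 CPM against 4.29 over all genes tested. By more than 2-fold, 579 genes rose (4.58%) and 1062 fell (8.4%), and by more than 4-fold 120 rose and 344 fell. Of the 3162 genes with the highest levels 758 rose and 353 fell, while of the 3162 with the lowest levels 73 rose and 418 fell. The genes that rose took 15.3% of all CPM with DMSO and 28.6% with BafA1. With the replicate number as a block in the 6 libraries alone, 4718 genes passed, 2424 higher and 2294 lower. When scaled by library totals alone, 1156 genes rose and 1830 fell, 38.7% of the calls being rises, and the median change of all genes moved from -0.05 to -0.13. The BafA1 and DMSO libraries did not overlap in 1496 of the genes that rose and 1461 of those that fell, against 42.9% of all genes tested.

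**Figure D1:**
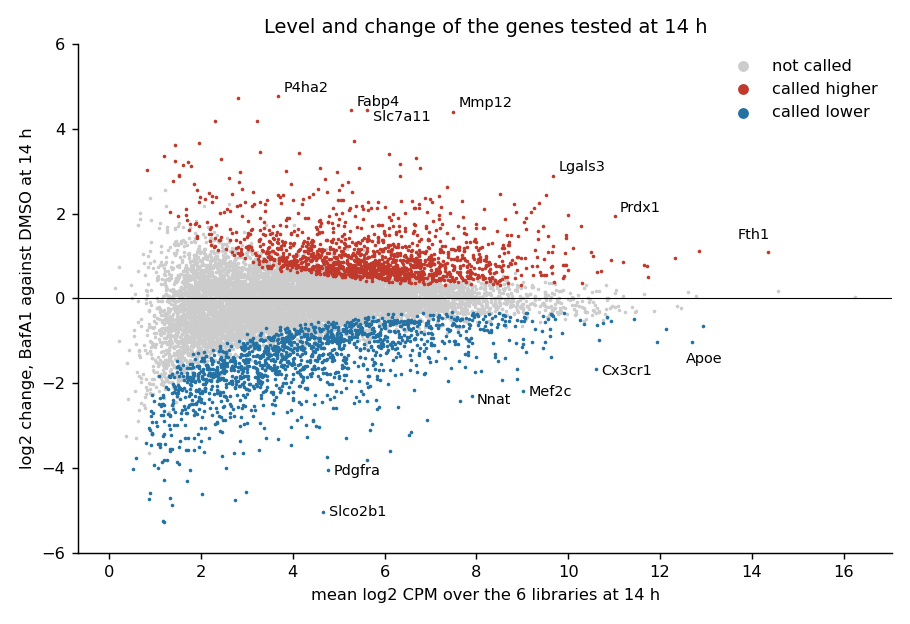
Each point is a gene tested at 14 h, with its mean log2 CPM over the 6 libraries on the horizontal axis and its log2 change, BafA1 against DMSO, on the vertical axis; red and blue points are genes called higher and lower, and genes at 0 in all libraries of 1 treatment are left out. Prdx1 and Fth1 stand among the most abundant genes that rose, while Slco2b1 (-5.03) is the lowest of the labelled genes that fell.

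The largest rises joined hypoxia, lipid and cystine genes. They were taken among genes averaging 3 log2 CPM or more over the 6 libraries and without overlap between the treatments. Fabp4, the fatty acid chaperone of fat cells and macrophages, stood at 9.6, 6.67 and 7.64 CPM with DMSO and at 187, 179 and 152 CPM with BafA1 (log2 change 4.45 ± 0.29, adjusted p = 2.92e-11). Mcoln2, an endolysosomal cation channel of the TRPML family, stood at 1.01, 2.08 and 2.23 CPM with DMSO and at 37.0, 35.3 and 30.0 CPM with BafA1 (4.17 ± 0.44, adjusted p = 7.03e-08). Fabp4 was low and Mcoln2 near the limit of detection in every vehicle library, and both were many times higher in every BafA1 library. Hilpda, an inhibitor of lipolysis at the lipid droplet, was at 24.8, 15 and 22.3 CPM with DMSO and at 254, 219.8 and 188 CPM with BafA1 (3.42 ± 0.26, adjusted p = 5.05e-10), and B4galt5, a galactosyltransferase that makes lactosylceramide, at 31.3, 26.7 and 22.9 and 239.6, 259.7 and 218 CPM (3.16 ± 0.18, adjusted p = 2.66e-12). Ccrl2, a chemerin-binding receptor that does not signal, rose by 3.07 ± 0.21 and Procr, the endothelial protein C receptor, by 3.01 ± 0.38. None of these 6 genes overlapped between the treatments, as the choice of the largest rises required.

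The largest falls, chosen in the same way, included carriers, an enzyme of prostaglandin breakdown and genes of oligodendrocyte precursors. Slco2b1, an organic anion carrier of microglia, stood at 138, 154 and 113 CPM with DMSO and at 4.76, 2.71 and 4.82 CPM with BafA1 (-5.03 ± 0.34, adjusted p = 7.88e-11). Hpgd, which breaks down prostaglandins, stood at 340.2, 296 and 232 CPM with DMSO and at 47.6, 19.0 and 27.9 CPM with BafA1 (-3.21 ± 0.30, adjusted p = 1.05e-08). For both genes every vehicle library was several times above every BafA1 library. Hfe, the haemochromatosis protein that binds the transferrin receptor, fell by 3.27 on the log2 scale (SE 0.34), Slc9a9, an endosomal sodium-proton exchanger, by 3.03 (SE 0.29) and Fgd2, a Cdc42 exchange factor of myeloid cells, by 3.58 (SE 0.53). Rn7sk, the RNA that holds back transcription elongation, fell by 3.15 (SE 0.38), but it is a small RNA without a poly(A) tail with near-identical copies in the genome, so its count in these libraries is uncertain.

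The genes of the pump that BafA1 blocks rose together. Of 18 V-ATPase genes, all tested, 15 rose and none fell, with a median change of 0.87 against -0.05 over all genes, 7 of 8 in the V1 sector that hydrolyses ATP and 8 of 10 in the membrane V0 sector and its accessory proteins. Atp6v1a, the catalytic A subunit, stood at 655, 573 and 534 CPM with DMSO and at 1722, 1811 and 1458 CPM with BafA1 (1.5 ± 0.14, adjusted p = 1.49e-08). Atp6v1c1, which joins the stator to the V0 sector, stood at 146, 109 and 106 CPM with DMSO and at 413, 391 and 331 CPM with BafA1 (1.66 ± 0.17, adjusted p = 4.35e-08), and Atp6v0d2, the d subunit of osteoclasts and macrophages, at 11.1, 5.83 and 9.23 and 35, 60.5 and 40.7 CPM (2.39 ± 0.39, adjusted p = 4.58e-05). All 3 BafA1 libraries lay above all 3 DMSO libraries in each. Atp6v0d1, the ubiquitous d subunit, rose by 1.03 ± 0.17 and Atp6v1g1 by 1.01 ± 0.14. The 3 subunit genes that did not pass were Atp6v1b2 (0.45 ± 0.19, adjusted p = 0.0926, and 0.00239 with the replicate number as a block, where 16 of 18 rose), Atp6v0a1 (0.24 ± 0.17, adjusted p = 0.333) and Atp6v0a2 (0.17 ± 0.18, adjusted p = 0.533).

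Lysosomal enzymes rose in part. Of 27 glycosidases and lipid hydrolases 9 rose and 2 fell (median 0.29), and without DMSO replicate 1 or 2 or BafA1 replicate 2 or 3 none fell. Over all genes tested 12.1% were called each way, so the falls of hydrolases were below that share. Gla, the alpha-galactosidase A lost in Fabry disease, stood at 56.1, 42.1 and 50.0 CPM with DMSO and at 235, 242 and 218 CPM with BafA1 (2.23 ± 0.18, adjusted p = 1.03e-09). Naglu, which degrades heparan sulfate, was at 35.4, 28.7 and 25.1 CPM with DMSO and at 87.0, 91.7 and 67.0 CPM with BafA1 (1.47 ± 0.21, adjusted p = 1.19e-05). Psap, the precursor of the saposins that present lipids to hydrolases, was at 5345, 5611 and 4257 CPM with DMSO and at 10560, 12660 and 9636 CPM with BafA1 (1.11 ± 0.19, adjusted p = 6.48e-05). The groups were apart in all 3 genes, and the level of Psap about doubled from an already high one. Of 14 proteases and their inhibitors tested 6 rose and 2 fell (median 0.46), the falls being near the 12.1% of all genes tested. Ctsd, the aspartic protease cathepsin D, rose by 0.95 ± 0.18, Ctsz, a carboxypeptidase, by 1.18 ± 0.20 and Cstb, the cytosolic cystatin that inhibits cathepsins, by 1.80 ± 0.15. Ctsc, which activates granule serine proteases, fell from 633, 571 and 452 CPM with DMSO to 261, 193 and 177 CPM with BafA1 (-1.39 ± 0.22, adjusted p = 2.44e-05), and Ctsh, an aminopeptidase, fell by 0.98 (SE 0.22). With the replicate number as a block 4 proteases and 5 hydrolases fell, where 2163 of all 12648 genes tested fell.

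Among 21 lysosomal membrane proteins 10 rose and none fell (median 0.53). Clcn7, the chloride-proton exchanger of lysosomes, stood at 30.8, 57.1 and 35.6 CPM with DMSO and at 117, 135 and 97.8 CPM with BafA1 (1.5 ± 0.22, adjusted p = 1.27e-05). Npc1, which exports cholesterol from lysosomes, stood at 83.9, 93.7 and 99.0 CPM with DMSO and at 232, 271 and 205 CPM with BafA1 (1.35 ± 0.16, adjusted p = 6.49e-07). In both the BafA1 libraries were all above the DMSO libraries. Mcoln1, the calcium channel TRPML1, rose by 1.41 ± 0.37 and Gpnmb, a glycoprotein of lipid-laden macrophages, by 2.43 ± 0.27. The abundant structural glycoproteins did not pass the test: Lamp1 had a change of 0.36 ± 0.18 (adjusted p = 0.161, and 0.00312 with the replicate number as a block) and Lamp2 of 0.12 ± 0.23 (adjusted p = 0.749). Lamp1, Lamp2 and the 3 transcription factors in the next paragraph were named for their roles after their values were seen.

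Genes of nutrient sensing and damage repair at the lysosome surface numbered 29, of which 11 rose and none fell (median 0.37). The count was 7 when scaled by library totals alone, 6 without DMSO replicate 3, 5 without BafA1 replicate 1 and 6 without BafA1 replicate 2. Rragd, a Rag GTPase that ties amino acid supply to mTORC1, stood at 16.2, 16.7 and 16.2 CPM with DMSO and at 65.2, 69.7 and 62.4 CPM with BafA1 (2.01 ± 0.22, adjusted p = 1.84e-07). Fnip2, a partner of folliculin in the control of the Rag GTPases, stood at 67.2, 41.6 and 36.0 CPM with DMSO and at 199.5, 244 and 185 CPM with BafA1 (2.13 ± 0.22, adjusted p = 7.08e-08), and Lgals3, the galectin that binds glycans exposed in broken lysosomes, at 343, 270.3 and 282 and 2207, 2458 and 2005 CPM (2.90 ± 0.24, adjusted p = 1.94e-09). No DMSO library reached the lowest BafA1 library in any of them. Rragc rose by 1.02 ± 0.14 and Fnip1 by 1.21 ± 0.17, so that Rag GTPase and folliculin partner genes of both pairs were higher. The transcripts of the factors themselves did not pass, with changes of -0.11 ± 0.31 for Tfeb, -0.28 ± 0.17 for Tfe3 and 0.00 ± 0.15 for Mitf. With the replicate number as a block Tfe3 had an adjusted p of 0.0746 over all 24 libraries and of 0.0431, past the threshold, in the 6 libraries alone.

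Of 31 autophagy genes 9 rose and none fell (median 0.21). Sqstm1, the p62 receptor that brings ubiquitinated cargo to autophagosomes, stood at 555, 532 and 479.6 CPM with DMSO and at 1984, 2324 and 1792 CPM with BafA1 (1.96 ± 0.12, adjusted p = 2.27e-11). Tecpr1, which acts where autophagosomes meet lysosomes, stood at 34.4, 35 and 19.4 CPM with DMSO and at 98.2, 114 and 71.8 CPM with BafA1 (1.70 ± 0.22, adjusted p = 2.73e-06). The 2 groups were apart in both. The receptor gene Optn rose by 1.90 ± 0.33, Atg12, the ubiquitin-like protein of the conjugation system, by 1.11 ± 0.19 and Gabarapl1 of the LC3 family by 0.91 ± 0.17. Of 27 Rab GTPases, which direct vesicle traffic, 10 rose and 1 fell. The rises were 6 when scaled by library totals alone or without DMSO replicate 2. The fall was lost without a filter on low counts, in the 6 libraries alone and without DMSO replicate 1 or BafA1 replicate 2 or 3. Rab20, found on phagosomes, rose by 1.33 ± 0.20, Rab8b by 1.09 ± 0.17, the lysosomal Rab7b by 0.76 ± 0.16 and Rab9, which serves return to the Golgi, by 0.75 ± 0.17.

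Promoters were read for the CLEAR core TCACGTG on either strand, in the 250 bases before and 50 after the start of each gene, from RefSeq on build GRCm38.p6; 9158 of 12638 symbols tested had a promoter there, and a gene counted as holding a motif if the window of any of its listed starts did. The core was in 4 of 11 matched promoters of V-ATPase genes that rose (36.4%), 3 of 7 of hydrolases (42.9%) and 2 of 8 of membrane proteins (25%). It was in 7.31% of the matched genes tested and in 3.77% of all 32851 promoters in the table. Of the 50 largest rises 42 matched and 4.76% held it, and of the 50 largest falls 37 matched and 5.41% held it. The following windows show 5 genes with values above, with the core or its reverse complement in capitals, read 5′ to 3′ on the strand of the gene, with their coordinates on build GRCm38.p6. Each is from the first listed start of its gene and holds the match nearest to it on its upstream side.
Gla (chrX:134601168-134601224, minus strand): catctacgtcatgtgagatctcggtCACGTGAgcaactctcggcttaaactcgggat
Atp6v1a (chr16:44139359-44139415, minus strand): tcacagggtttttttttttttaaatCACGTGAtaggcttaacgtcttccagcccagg
Naglu (chr11:101069995-101070051, plus strand): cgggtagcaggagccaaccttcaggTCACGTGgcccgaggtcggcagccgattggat
Clcn7 (chr17:25133350-25133390, plus strand): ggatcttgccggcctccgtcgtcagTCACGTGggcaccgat
Mcoln1 (chr8:3500449-3500505, plus strand): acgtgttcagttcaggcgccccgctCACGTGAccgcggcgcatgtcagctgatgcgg
Between the core and the start lay 9 bases in Clcn7, the nearest of the 5, and 187 bases in Gla, the farthest. A match is a description of the letters, with no test, and says nothing of binding. The share among list members that did not rise was not counted.

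Genes of the hypoxia pathway, in which HIF factors escape degradation and bind ACGTG elements, formed the list with the largest median change of those described so far. Of 30 tested, 19 rose and none fell (median 1.3), 16 of them by more than 2-fold, 4 of 9 regulators and 15 of 21 effectors. P4ha2, a prolyl hydroxylase of collagen, stood at 3.54, 0.833 and 2.23 CPM with DMSO and at 44.5, 69.5 and 63.5 CPM with BafA1 (4.76 ± 0.41, adjusted p = 3.36e-09). Bnip3, a receptor for mitophagy, stood at 42.5, 25 and 30.9 CPM with DMSO and at 347, 336 and 281 CPM with BafA1 (3.30 ± 0.20, adjusted p = 1.34e-11), and Ak4, a mitochondrial adenylate kinase, at 6.07, 6.25 and 11.5 and 65.9, 80.3 and 62.2 CPM (3.08 ± 0.35, adjusted p = 3.09e-07). P4ha2 was at or near the limit of detection in the DMSO libraries, and in all 3 genes the groups were apart. Ndrg1 rose by 2.33 ± 0.33 and Vegfa, the angiogenic growth factor, by 1.80 ± 0.31. Hif1a itself, named after its value was seen, had a change of 0.25 ± 0.14 (adjusted p = 0.218, and 0.0216 with the replicate number as a block), which is of its transcript and not of its protein.

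Of 27 genes of glucose uptake and glycolysis, 19 rose and 4 fell (median 1.19), 9 of 13 in the lower steps and lactate handling rising, each by more than 2-fold. Slc16a3, the lactate exporter MCT4, stood at 35.9, 41.2 and 35 CPM with DMSO and at 335, 340.3 and 266 CPM with BafA1 (3.07 ± 0.20, adjusted p = 2.92e-11). Pgk1, phosphoglycerate kinase, stood at 315, 302 and 287 CPM with DMSO and at 1560, 1481 and 1251 CPM with BafA1 (2.25 ± 0.12, adjusted p = 2.66e-12), and Ldha, the lactate dehydrogenase subunit of muscle type, at 748, 706 and 614 and 2520, 2201 and 1995 CPM (1.70 ± 0.13, adjusted p = 5.21e-10). These 3 genes were apart between the groups by several times the range within either. Higher in the pathway, Hk2, hexokinase 2, rose by 2.16 ± 0.18 and Pfkl, a phosphofructokinase subunit, by 2.47 ± 0.22; Tpi1 rose by 2.46 ± 0.17, Aldoa by 1.43 ± 0.14 and Gapdh by 1.18 ± 0.18. One of the 4 that fell, the aldolase isoform Aldoc (-1.82 ± 0.20), is also on the astrocyte list, whose summed level fell in the same libraries.

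Promoters of these genes were read for ACGTG on either strand, which is contained in the CLEAR core TCACGTG. It was in 13 of 17 matched promoters of hypoxia genes that rose (76.5%) and in 13 of 19 of the glycolysis genes that rose (68.4%), against 29.9% of the matched genes tested and 19.6% of all promoters in the table. Of the 50 largest rises 42 matched and 47.6% held it, and of the 50 largest falls 37 matched and 13.5% held it. Windows around the match nearest the start on its upstream side are given for 5 genes with values above, with the match or its reverse complement in capitals.
P4ha2 (chr11:54100821-54100875, plus strand): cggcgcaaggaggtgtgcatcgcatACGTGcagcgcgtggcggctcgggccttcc
Bnip3 (chr7:138909584-138909638, minus strand): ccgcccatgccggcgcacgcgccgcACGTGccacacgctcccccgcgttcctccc
Pgk1 (chrX:106186944-106186998, plus strand): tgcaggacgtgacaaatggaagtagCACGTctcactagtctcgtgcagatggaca
Slc16a3 (chr11:120949028-120949066, plus strand): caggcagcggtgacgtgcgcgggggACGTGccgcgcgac
Ldha (chr7:46845745-46845799, plus strand): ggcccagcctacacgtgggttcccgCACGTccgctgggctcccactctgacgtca
Over the whole promoter there were 5 matches in Ldha and 2 in each of the other 4 genes, with overlapping matches on opposite strands counted separately. They are matches to 5 letters, which are common, and were not tested. Members of these lists that did not rise were not counted separately, so the shares cannot be tied to the rise.

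Mitochondrial genes stood apart from glycolysis in having few rises. Over all genes tested 12.1% were called each way. Of 24 genes of pyruvate entry and the citric acid cycle 1 rose and 2 fell (median 0.02). Of 35 nuclear-encoded subunits of oxidative phosphorylation none rose and 3 fell (median -0.13), so both lists stayed below that share. All of these calls were lost without BafA1 replicate 2 and without DMSO replicate 1, which each left 0 in either direction, and without BafA1 replicate 3 the counts were 2 higher, 0 lower and 1 lower in the order given. In the citric acid cycle none fell without DMSO replicate 2, none rose without BafA1 replicate 1, and without DMSO replicate 3 none rose and 1 fell. Scaling by library totals called 6 oxidative phosphorylation genes lower. With the replicate number as a block 4 citric acid cycle genes rose. Ucp2, a mitochondrial carrier that is on neither list, stood at 259.8, 298 and 219.6 CPM with DMSO and at 117, 93.6 and 85.2 CPM with BafA1 (-1.39 ± 0.18, adjusted p = 1.43e-06). Its BafA1 libraries were all below its DMSO libraries. In the pentose phosphate pathway Pgd, which yields NADPH, rose by 0.89 ± 0.17; the pathway's count of 3 of 8 was 1 without DMSO replicate 2 or BafA1 replicate 2.

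**Figure D2:**
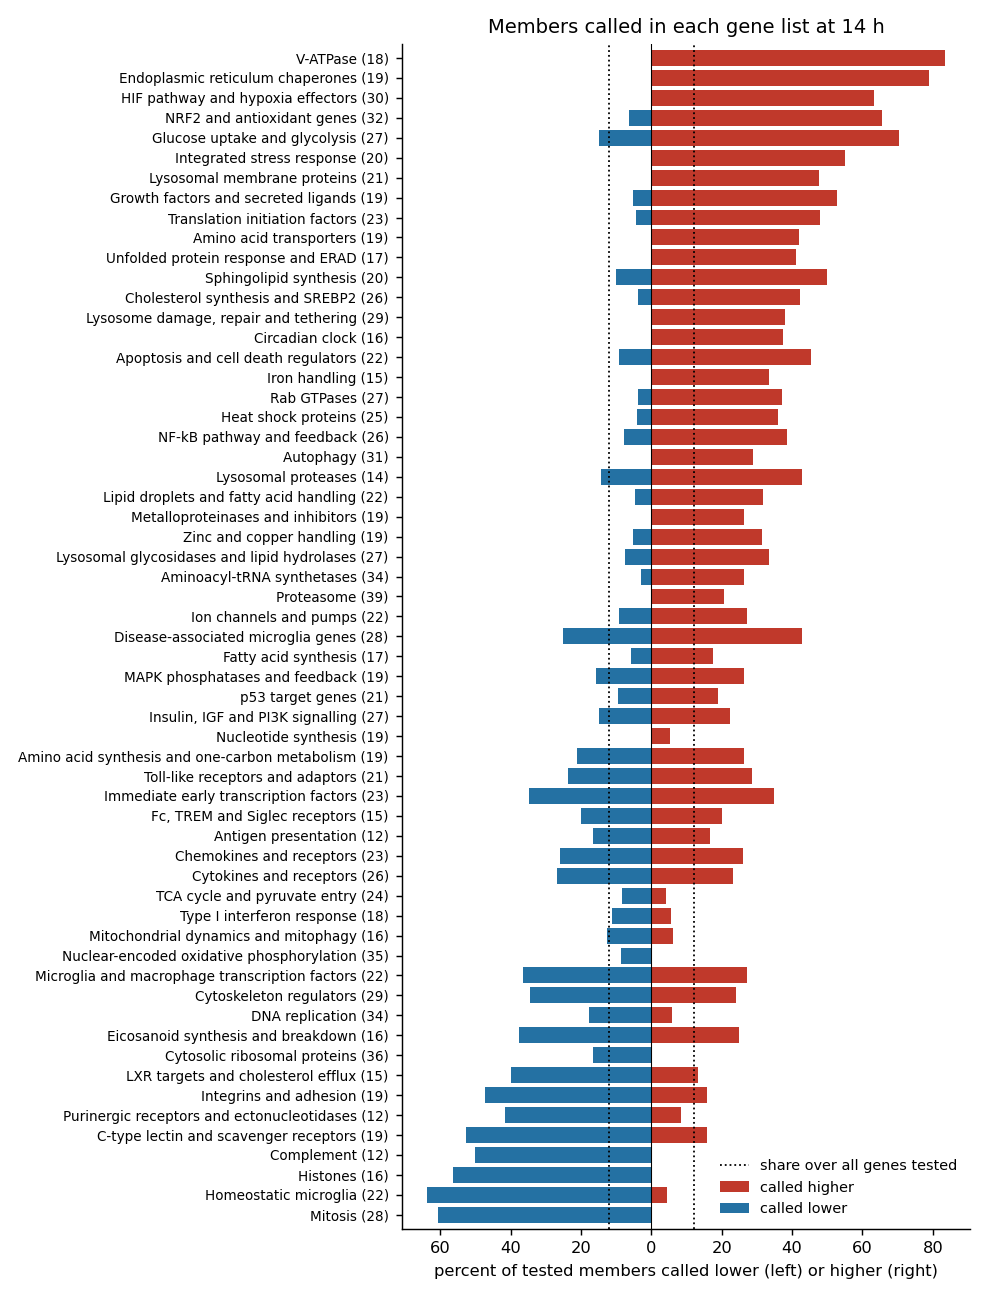
Bars give the percent of tested members called higher (right, red) and lower (left, blue) at 14 h in each gene list with 12 or more tested members, cell type marker lists left out, with the number tested in parentheses; dotted lines mark 12.1%, the share of all genes tested called in each direction. The V-ATPase, endoplasmic reticulum chaperones, hypoxia genes and antioxidant genes stand at the top, and histones, homeostatic microglia genes and mitosis at the bottom of the lists drawn.

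Amino acid transporters rose in part. Of 19 amino acid transporters tested 8 rose, each by more than 2-fold, and none fell (median 0.51); 1 fell with the replicate number as a block or without BafA1 replicate 2. Slc7a11, the cystine-glutamate exchanger, stood at 8.09, 10.8 and 11.5 CPM with DMSO and at 227, 243 and 204 CPM with BafA1 (4.44 ± 0.25, adjusted p = 2.66e-12). Slc38a2, a glutamine and alanine transporter, stood at 111, 109.5 and 98.0 CPM with DMSO and at 338, 393 and 312 CPM with BafA1 (1.71 ± 0.15, adjusted p = 5.08e-09), and the cationic amino acid transporter Slc7a1 at 15.2, 19.2 and 27.1 and 69.3, 87.7 and 84.7 CPM (1.95 ± 0.20, adjusted p = 5.81e-08). All BafA1 libraries were above all DMSO libraries in these 3. Slc36a4 rose by 1.80 ± 0.23 and Slc3a2, the heavy chain shared by several exchangers, by 1.18 ± 0.12. Amino acid synthesis and one-carbon genes were mixed, with 5 of 19 higher and 4 lower (2 without a filter on low counts). The mitochondrial folate enzymes Mthfd2 and Mthfd1l rose by 2.29 ± 0.19 and 2.34 ± 0.27 and asparagine synthetase, Asns, by 1.39 ± 0.27. Glul, glutamine synthetase, fell from 608, 558 and 443 CPM with DMSO to 242, 214 and 196 CPM with BafA1 (-1.30 ± 0.19, adjusted p = 9.36e-06).

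The integrated stress response, in which kinases slow translation and favour that of ATF4, had 11 of 20 genes higher and none lower (median 1.00). Trib3, a pseudokinase induced by ATF4 and CHOP, stood at 3.03, 4.17 and 7.64 CPM with DMSO and at 58.8, 63.2 and 48.2 CPM with BafA1 (3.44 ± 0.40, adjusted p = 4.85e-07). Gdf15, a secreted stress signal, stood at 11.1, 9.58 and 7.64 CPM with DMSO and at 63.2, 65.1 and 68.9 CPM with BafA1 (2.81 ± 0.29, adjusted p = 6.02e-08), and Ppp1r15a, which restores translation by dephosphorylating eIF2, at 4.04, 4.17 and 8.59 and 25.5, 27.4 and 42.6 CPM (2.44 ± 0.36, adjusted p = 1.33e-05). Low in all DMSO libraries, the 3 genes were clearly expressed in all BafA1 libraries. Chac1, which degrades glutathione, rose by 2.84 ± 0.47 and Ddit3, encoding CHOP, by 2.52 ± 0.33. Cytosolic aminoacyl-tRNA synthetases, which charge tRNAs, rose in 9 of 20 cases with none lower (median 0.45), while of 14 mitochondrial ones none rose and 1 fell (median 0.06), a fall lost without DMSO replicate 1 or 2 or BafA1 replicate 1 or 3 and joined by a second with the replicate number as a block. Among them Cars rose by 1.56 ± 0.25, Sars by 1.23 ± 0.17 and Aars by 1.16 ± 0.19. No promoter of 10 matched stress response genes that rose held TGATGNAAT, the C/EBP-ATF response motif searched on either strand, which 0.557% of the matched genes tested and 0.965% of all promoters in the table hold.

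In the translation machinery, 11 of 23 initiation factors rose and 1 fell (median 0.36), with 6 rising when scaled by library totals alone. Eif4ebp1, an inhibitor of cap-dependent translation, rose by 1.33 ± 0.18, Eif1a by 1.23 ± 0.16 and Eif2s2, the beta subunit of eIF2, by 0.68 ± 0.13. Where 12.1% of all genes tested fell, of 36 cytosolic ribosomal protein genes none rose and 6 fell (median -0.23). This count was among the least stable: 15 fell with the replicate number as a block, 18 with scaling by library totals, 3 without a filter on low counts, 0 without DMSO replicate 1 or BafA1 replicate 2, 1 without BafA1 replicate 3, 2 without DMSO replicate 2 and 3 without DMSO replicate 3. Ribosomal protein genes took 9.45% to 10.5% of the counts with DMSO and 7.18% to 8.17% with BafA1.

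Endoplasmic reticulum chaperones, which fold secreted and membrane proteins, rose in 15 of 19 cases with none lower (median 0.68). Hspa5, the chaperone BiP, stood at 500.4, 521 and 572 CPM with DMSO and at 1121, 1385 and 1251 CPM with BafA1 (1.24 ± 0.11, adjusted p = 5.87e-09). Calr, calreticulin, which folds glycoproteins, stood at 320.5, 340.3 and 345 CPM with DMSO and at 651, 716 and 627 CPM with BafA1 (0.99 ± 0.13, adjusted p = 4.79e-06). The groups did not overlap in either gene, whose levels about doubled or rose further. Sdf2l1 rose by 1.27 ± 0.25, Hyou1 by 1.24 ± 0.15 and Creld2 by 1.20 ± 0.28. In the unfolded protein response and the disposal of misfolded proteins 7 of 17 rose and none fell (median 0.48), 4 without BafA1 replicate 2. Xbp1, the transcription factor spliced by IRE1, rose by 1.00 ± 0.15 and Edem2, which marks misfolded glycoproteins, by 1.16 ± 0.24.

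Protein disposal in the cytosol moved less. Of 39 proteasome subunits 8 rose and none fell (median 0.22), 4 when scaled by library totals alone, 5 in libraries thinned to equal depth and 5 without DMSO replicate 2. Psmd8, of the regulatory particle, stood at 254, 243 and 280.4 CPM with DMSO and at 724, 806 and 660.1 CPM with BafA1 (1.49 ± 0.14, adjusted p = 2.11e-08), with the groups apart, and the catalytic subunit Psmb6 rose by 0.95 ± 0.13. Heat shock proteins rose in 9 of 25 cases and fell in 1 (median 0.26), a fall lost without a filter on low counts. The rises were 2 when scaled by library totals alone, 5 without DMSO replicate 1 and 4 without DMSO replicate 2 or BafA1 replicate 2. Hspa9, the mitochondrial chaperone mortalin, rose from 118, 107 and 150.2 CPM with DMSO to 293, 407 and 402 CPM with BafA1 (1.55 ± 0.18, adjusted p = 6.11e-07).

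Antioxidant genes rose, with 21 of 32 NRF2 regulators and targets higher and 2 lower (median 0.91), 14 rising by more than 2-fold. Prdx1, a peroxiredoxin that reduces hydrogen peroxide, stood at 1170, 1052 and 946 CPM with DMSO and at 3929, 4428 and 3752 CPM with BafA1 (1.93 ± 0.13, adjusted p = 7.88e-11). Hmox1, which cleaves haem, stood at 272, 311 and 291 CPM with DMSO and at 1077, 1388 and 1100 CPM with BafA1 (2.03 ± 0.16, adjusted p = 1.21e-09), and Gclm, the modifier subunit of glutathione synthesis, at 126, 154 and 133 and 442, 542 and 423 CPM (1.77 ± 0.16, adjusted p = 5.08e-09). In all 3 the lowest BafA1 library was several times above the highest DMSO library. Srxn1, which repairs peroxiredoxins, rose by 2.27 ± 0.15 and Maff, a small MAF partner of NRF2, by 2.22 ± 0.34. Nfe2l2, encoding NRF2 itself, rose by 0.90 ± 0.15, while Keap1, which targets NRF2 for degradation, had a change of -0.01 ± 0.16. Gpx1, a glutathione peroxidase, went the other way and fell by 1.72 (SE 0.14); the second fall, of Sod1, was lost without DMSO replicate 1 or 2 or BafA1 replicate 2 or 3. Nfe2l2, Keap1, Gpx1 and Sod1 were named after their values were seen.

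The antioxidant response core TGACNNNGC, searched on either strand, was in 9 of 16 matched promoters of the antioxidant genes that rose (56.2%). It was in 17.1% of the matched genes tested and 12.4% of all promoters in the table. Of the matched genes among the 50 largest rises 21.4% held it, and of those among the 50 largest falls 18.9%. The windows of Gclm and Prdx1 show it as its reverse complement, in capitals.
Gclm (chr3:122245398-122245456, plus strand): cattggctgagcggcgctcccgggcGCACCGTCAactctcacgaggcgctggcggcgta
Prdx1 (chr4:116685441-116685499, plus strand): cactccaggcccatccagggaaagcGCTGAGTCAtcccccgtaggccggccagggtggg
Each was the 1 match in its promoter, with 125 bases between it and the start in Gclm and 124 in Prdx1. Antioxidant genes that did not rise were not counted separately for this core, and no test was made.

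Iron reaches the cytosol after acid releases it from transferrin in endosomes. Of the 15 iron genes tested 5 rose, each by more than 2-fold, and none fell (median 0.32); Hfe, which fell as described above, is not on that list. Tfrc, the transferrin receptor, stood at 53.6, 44.6 and 54.7 CPM with DMSO and at 238, 218 and 218 CPM with BafA1 (2.14 ± 0.16, adjusted p = 2.92e-10). Slc11a2, the transporter DMT1 that moves iron out of endosomes, stood at 48.5, 40.8 and 40.1 CPM with DMSO and at 174, 193 and 156 CPM with BafA1 (2.02 ± 0.20, adjusted p = 2.87e-08), and Fth1, the ferritin heavy chain, at 15110, 15770 and 12530 and 30350, 35740 and 26540 CPM (1.09 ± 0.25, adjusted p = 0.00186). The groups were apart in all 3, most narrowly in Fth1. Slc25a37, which brings iron into mitochondria, rose by 1.82 ± 0.31. Among 19 zinc and copper genes 6 rose and 1 fell. The rises included the zinc exporter Slc30a1 (1.13 ± 0.22) and the copper transporter Slc31a1 (0.90 ± 0.16). The fall was lost without a filter on low counts, in the 6 libraries alone and without DMSO replicate 1 or 2 or BafA1 replicate 2 or 3.

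**Figure D3:**
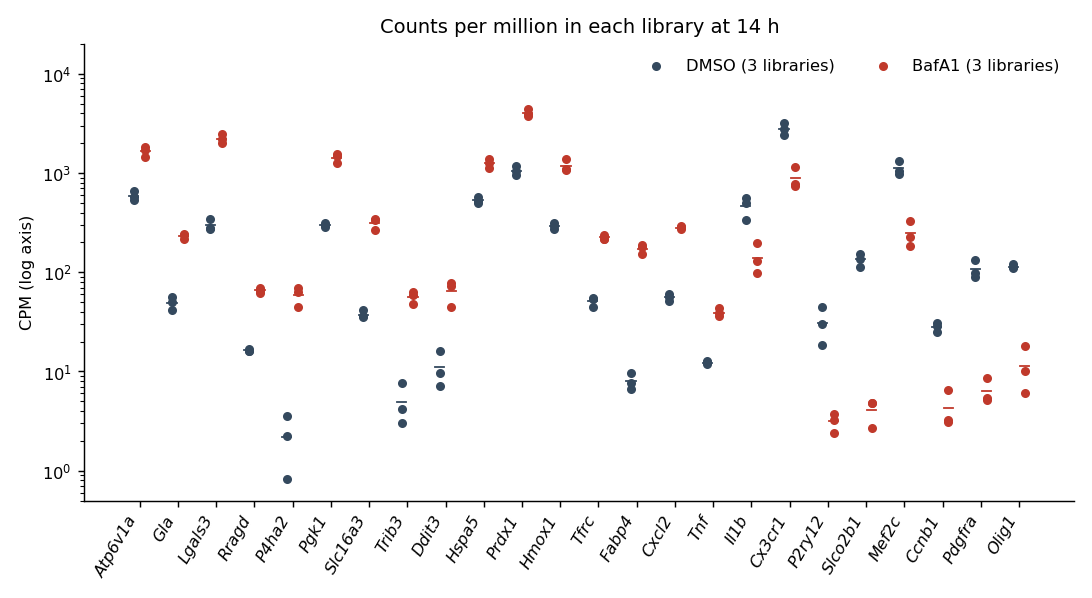
Points give the CPM of 24 genes in each of the 3 DMSO and 3 BafA1 libraries at 14 h on a log axis, and short lines the group means. The 24 genes were chosen among called ones, and the groups do not overlap in any of them. The same holds for 1496 of the 1526 genes that rose, 1461 of the 1528 that fell and 42.9% of all genes tested. Slco2b1, P2ry12 and Pdgfra lie below 10 CPM in every BafA1 library, and P4ha2 below 4 CPM in every DMSO library.

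Lipid genes moved in several ways. Of 26 genes of cholesterol synthesis and its SREBP2 control 11 rose and 1 fell (median 0.42). The rises were 7 when scaled by library totals alone or without DMSO replicate 1. The fall was lost with DESeq2, with a stricter or no count filter, in the 6 libraries alone and in thinned libraries. Insig1, which holds SREBP in the endoplasmic reticulum, stood at 28.8, 23.7 and 24.8 CPM with DMSO and at 56.1, 64.6 and 65.7 CPM with BafA1 (1.27 ± 0.16, adjusted p = 1.79e-06). Idi1, an isomerase of the mevalonate pathway, stood at 23.2, 25 and 31.5 CPM with DMSO and at 52.7, 64.0 and 75.8 CPM with BafA1 (1.26 ± 0.25, adjusted p = 0.000513). The BafA1 libraries were all above the DMSO libraries in both genes. Of 15 LXR targets and efflux genes 6 fell and 2 rose (median -0.27). Apoe, the main lipoprotein of the brain, stood at 9146, 10810 and 8380 CPM with DMSO and at 4882, 5048 and 4065 CPM with BafA1 (-1.02 ± 0.16, adjusted p = 2.47e-05), with no overlap; the transporter gene Abca9 fell by 2.44 (SE 0.35). Soat1 and Nceh1, which make and cleave cholesterol esters, both rose, by 1.14 ± 0.20 and 1.21 ± 0.19.

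In lipid droplets and fatty acid handling 7 of 22 genes rose and 1 fell (median 0.41), or 2 fell with the replicate number as a block or without BafA1 replicate 1. Fabp5 rose by 1.48 ± 0.17, and the droplet coats Plin2 and Plin3 by 1.09 ± 0.19 and 1.10 ± 0.18. Of 17 fatty acid synthesis genes 3 rose and 1 fell (median 0.10), or 6 and 2 with the replicate number as a block. Among them Mlxipl, the carbohydrate-responsive transcription factor of lipid synthesis, stood at 13.7, 16.2 and 11.1 CPM with DMSO. It fell to 2.04, 5.16 and 2.68 CPM with BafA1 (-2.01 ± 0.47, adjusted p = 0.00237), with no overlap. Sphingolipid synthesis had 10 of 20 higher and 2 lower (median 0.56). Among the rises were Ugcg, which makes glucosylceramide (1.98 ± 0.22), Kdsr (1.84 ± 0.24) and Degs1 (1.21 ± 0.14). St3gal5, which makes the ganglioside GM3, fell by 1.37 (SE 0.21). The falls were 1 without a filter on low counts and without DMSO replicate 1 or 2 or BafA1 replicate 2 or 3. Eicosanoid genes had 6 of 16 lower and 4 higher, the rises being 2 without DMSO replicate 2, without BafA1 replicate 3 or in thinned libraries. Ptgs1, cyclooxygenase 1, fell by 1.69 (SE 0.20), and Ptges, a prostaglandin E synthase, rose from 4.04, 1.25 and 6.37 CPM with DMSO to 15.6, 20.4 and 20.6 CPM with BafA1 (2.23 ± 0.52, adjusted p = 0.0021).

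Genes of the resting microglial state fell. Of 22 homeostatic genes tested 14 fell and 1 rose (median -1.07), 11 falling by more than 2-fold. P2ry12, the ADP receptor that guides microglial processes, stood at 29.8, 44.6 and 18.5 CPM with DMSO and at 3.74, 3.26 and 2.41 CPM with BafA1 (-3.29 ± 0.38, adjusted p = 4.19e-07). Tmem119, a microglial surface protein, stood at 17.2, 16.2 and 15.9 CPM with DMSO and at 4.42, 4.07 and 2.95 CPM with BafA1 (-2.10 ± 0.28, adjusted p = 2.96e-06), and Cx3cr1, the fractalkine receptor, at 2768, 3219 and 2396 and 1151, 772 and 736 CPM (-1.66 ± 0.20, adjusted p = 8.45e-07). Every BafA1 library was below every DMSO library in the 3 genes. Gpr34 fell by 2.59 (SE 0.28), Selenop, a selenium carrier, by 1.90 (SE 0.24) and Aif1, encoding IBA1, by 1.94 (SE 0.23). In bulk RNA fewer cells of a type and less RNA per cell cannot be told apart. Not every microglial gene was lower: 9 of 15 identity markers fell and 1, the lysosomal Cd68, rose (0.96 ± 0.18), while Trem2, a lipid receptor, had a change of 0.05 ± 0.21 and its adaptor Tyrobp of -0.30 ± 0.20 (adjusted p = 0.3, and 0.0254 with the replicate number as a block). Csf1r, the receptor microglia need to survive, fell by 0.89 (SE 0.20). Cd68, Trem2, Tyrobp and Csf1r were named after their values were seen.

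Transcription factors of microglia and macrophages were divided, 8 of 22 lower and 6 higher. Mef2c stood at 1056, 1330 and 989 CPM with DMSO and at 327, 227 and 184 CPM with BafA1 (-2.20 ± 0.27, adjusted p = 8.37e-07). Bhlhe41, a repressor that also serves the circadian clock, stood at 84.4, 97.5 and 95.5 CPM with DMSO and at 444, 535 and 394 CPM with BafA1 (2.31 ± 0.17, adjusted p = 3.65e-10), and its partner Bhlhe40 at 8.59, 18.3 and 18.1 and 67.6, 83.8 and 79.3 CPM (2.32 ± 0.21, adjusted p = 6.77e-09). The first lay lower and the other two higher in every BafA1 library. Klf2 fell by 1.97 (SE 0.27) and the nuclear receptor gene Nr4a1 by 1.63 (SE 0.28). Of 28 genes linked to disease-associated microglia 12 rose and 7 fell (median 0.51), the rises including Lgals3, Gpnmb, Fabp5 and Lilrb4a (1.33 ± 0.33).

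Among surface receptors and complement, the lists differed. Of 19 C-type lectin and scavenger receptors 10 fell and 3 rose (median -0.49). Clec4a3 stood at 82.9, 60.4 and 48.0 CPM with DMSO and at 10.2, 4.34 and 9.38 CPM with BafA1 (-3.0 ± 0.38, adjusted p = 1.54e-06), and Clec4e, the receptor Mincle for glycolipids, at 53.1, 62.5 and 40.4 and 249.8, 285 and 266 CPM (2.37 ± 0.23, adjusted p = 2.87e-08). The groups were apart in both genes, in opposite directions; reads of the closely related Clec4a genes may be shared among copies. With the replicate number as a block 5 of these receptors rose. Of 12 complement genes 6 fell and none rose (median -0.51), or 2 rose with the replicate number as a block and 1 without BafA1 replicate 2. C1qa, C1qb and C1qc, the chains of C1q, had changes of -1.02 ± 0.23, -0.98 ± 0.21 and -1.08 ± 0.20. Purinergic receptors and ectonucleotidases had 5 of 12 lower and 1 higher, the latter being P2ry2 (2.28 ± 0.55). Fcgr1, a high-affinity Fc receptor, fell by 1.90 (SE 0.26), and Cd33, a sialic acid receptor, rose by 1.65 ± 0.19. Of 15 Fc, TREM and Siglec receptors 3 rose and 3 fell, where 12.1% of all genes tested were called each way. Without DMSO replicate 1 or BafA1 replicate 2 or 3 only 1 of these receptors fell. Of 21 Toll-like receptors and adaptors 6 rose and 5 fell, with 2 falling without DMSO replicate 2 and 3 without DMSO replicate 3 or BafA1 replicate 2 or 3.

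Adhesion and the cytoskeleton followed in part. Of 19 integrin and adhesion genes 9 fell and 3 rose (median -0.71). Itga6 stood at 596, 715 and 616 CPM with DMSO and at 288, 218 and 218 CPM with BafA1 (-1.41 ± 0.14, adjusted p = 6.02e-08), and Alcam at 191, 229 and 186 and 548, 688 and 579 CPM (1.59 ± 0.14, adjusted p = 5.87e-09). The first was below and the second above in every BafA1 library. Of 29 cytoskeleton regulators 10 fell and 7 rose: Coro1a, an actin-binding protein of leukocytes, fell by 1.93 (SE 0.27) and Marcksl1 by 1.16 (SE 0.13), and the intermediate filament gene Vim rose by 1.71 ± 0.22. Tmsb4x, thymosin beta 4, which binds actin monomers, fell from 6375, 5755 and 4780 CPM with DMSO to 2940, 2869 and 2414 CPM with BafA1 (-1.04 ± 0.18, adjusted p = 0.000136).

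Inflammatory genes did not move as 1 group. NF-kB genes and their feedback had 10 of 26 higher and 2 lower (median 0.43). None of them fell without DMSO replicate 1 or without BafA1 replicate 3. Chemokines and receptors had 6 of 23 higher and 6 lower, and cytokines and receptors 6 of 26 higher and 7 lower. The NF-kB core GGGANTTCC, searched on either strand, was in 4.76% of the matched genes among the 50 largest rises. It was in none of those among the 50 largest falls, in 2.68% of the matched genes tested and in 1.68% of all promoters in the table. Cxcl2, a chemokine for neutrophils, stood at 60.7, 51.6 and 55.7 CPM with DMSO and at 286, 270.0 and 290.2 CPM with BafA1 (2.33 ± 0.24, adjusted p = 5.17e-08). Tnf stood at 12.6, 12.5 and 11.8 CPM with DMSO and at 43.2, 38.5 and 36.2 CPM with BafA1 (1.67 ± 0.28, adjusted p = 6.47e-05), and Il1b at 566, 497 and 337 and 195, 97.7 and 128 CPM (-1.73 ± 0.33, adjusted p = 0.000341). The first 2 were higher and Il1b lower in every BafA1 library. Acod1, which makes itaconate, rose by 3.71 ± 0.24, Tnfaip3, the A20 brake on NF-kB, by 2.14 ± 0.29 and Tnfrsf1b, a TNF receptor, by 1.58 ± 0.21. Il18 fell by 1.49 (SE 0.38) and Sting1, the sensor of cyclic dinucleotides, by 1.5 (SE 0.22). Among antigen presentation genes the class II gene H2-Ab1 rose from 3.54, 4.58 and 2.23 CPM with DMSO to 14.6, 16.6 and 8.58 CPM with BafA1 (1.95 ± 0.43, adjusted p = 0.00134), while H2-DMa, which loads class II, fell by 1.53 (SE 0.34).

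Secreted proteases, growth factors and early genes also changed. Mmp12, the macrophage elastase, stood at 34.9, 41.6 and 41.0 CPM with DMSO and at 670.5, 1080 and 754 CPM with BafA1 (4.41 ± 0.34, adjusted p = 7.01e-10). Plaur and Plau, the urokinase receptor and its ligand, rose by 1.79 ± 0.21 and 1.65 ± 0.23, and Adam17, which sheds TNF, by 0.97 ± 0.14. Metalloproteinases and inhibitors as a list had 5 of 19 higher and none lower, and 9 higher and 3 lower with the replicate number as a block; 1 was lower without BafA1 replicate 2. Of 19 growth factors and ligands 10 rose and 1 fell (median 0.65), with changes of 1.90 ± 0.38 for Adm, adrenomedullin, and 1.34 ± 0.23 for Vegfb; the 1 that fell was Tgfa (-1.84 ± 0.30). Immediate early factors were divided at 8 higher and 8 lower of 23: Nr4a3 fell from 8.09, 6.67 and 6.37 CPM with DMSO to 0.68, 1.9 and 0.536 CPM with BafA1 (-2.68 ± 0.63, adjusted p = 0.00194). Among cell death regulators 10 of 22 rose and 2 fell, with the survival genes Bcl2 and Bcl2l1 at 1.36 ± 0.22 and 1.27 ± 0.17 and the BH3-only gene Bmf at -2.39 ± 0.33. Sesn1 and Sesn2, sensors of amino acid supply, moved in opposite directions, at -2.21 ± 0.24 and 1.54 ± 0.39.

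Genes of mitosis fell. Of 28 mitosis genes 17 fell, each by more than 2-fold, and none rose (median -1.46); 11 fell without DMSO replicate 3 or BafA1 replicate 1 or 2. Ccnb1, cyclin B1, stood at 25.3, 28.7 and 30.6 CPM with DMSO and at 3.06, 3.26 and 6.43 CPM with BafA1 (-2.70 ± 0.38, adjusted p = 7.38e-06). Cenpa, the histone of centromeres, stood at 51.0, 48.3 and 50.3 CPM with DMSO and at 8.5, 7.05 and 11.0 CPM with BafA1 (-2.49 ± 0.29, adjusted p = 4.55e-07), and Aurkb, a mitotic kinase, at 3.03, 6.67 and 7.96 and 1.36, 0.543 and 0.804 CPM (-2.71 ± 0.66, adjusted p = 0.00274). No BafA1 library reached a DMSO library in these genes. DNA replication genes had 6 of 34 lower and 2 higher (median -0.54), where 12.1% of all genes tested were called each way. The falls were 2 without DMSO replicate 3 and 3 without BafA1 replicate 3. Mcm5 of the helicase fell by 1.78 (SE 0.32) and the licensing factor Cdt1 rose by 1.38 ± 0.18. Of 16 histone genes tested 9 fell and none rose (median -0.64), with H2ac8 at -2.21 ± 0.25 and the variant H2az2 at -0.98 ± 0.18; clustered histone genes are near copies of each other and share reads.

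Markers of other brain cells fell in the same libraries. The 20 oligodendrocyte lineage markers summed to 809, 1004 and 974.5 CPM with DMSO and to 192, 281 and 257 CPM with BafA1, with 15 of 19 tested lower (median -2.51), none higher and none at 0 in all 6 libraries. Pdgfra, the receptor that defines their precursors, stood at 90.0, 134 and 99.3 CPM with DMSO and at 5.44, 5.16 and 8.58 CPM with BafA1 (-4.06 ± 0.21, adjusted p = 1.56e-12). Sox10, a transcription factor of the lineage, stood at 24.3, 35.8 and 22.9 CPM with DMSO and at 2.38, 2.71 and 4.56 CPM with BafA1 (-3.06 ± 0.30, adjusted p = 3.2e-08), and Olig2 fell by 3.02 (SE 0.24). Every DMSO library was above every BafA1 library in each. The 17 astrocyte markers summed to 252 to 402 CPM with DMSO and 109 to 224 CPM with BafA1, with 7 of 15 tested lower and Gjb6 at 0 in all libraries; the glutamate transporter Slc1a2 fell by 1.67 (SE 0.23). The 15 neuron markers summed to 280 to 351 CPM with DMSO and 119 to 147 CPM with BafA1, with 4 of 8 tested lower, among them Map2 (-1.69 ± 0.20) and Elavl4 (-1.84 ± 0.24).

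The other marker lists overlapped between treatments or were low. Fibroblast, pericyte and endothelial markers summed to 108 to 174 CPM with DMSO and 143 to 236 CPM with BafA1, and border macrophage markers to 755 to 904 and 762 to 993 CPM, with Lyve1 and Cd209f at 0 in all 6 libraries. In the latter list 2 of 5 tested fell, Mrc1 (-1.51 ± 0.21) and Pf4 (-1.18 ± 0.18). Markers of other blood cells did not exceed 25.3 CPM in any library, and 4 of the 17, among them Cd79a, Nkg7 and Retnlg, were at 0 in all 6. Among the genes with 0 counts in every BafA1 library, Gabrg1, a GABA receptor subunit, held 58 counts over the DMSO libraries (6.57, 10.8 and 6.05 CPM), at least 26.6-fold lower with BafA1 against a limit of 3 counts over the group (adjusted p = 1.6e-06). Wif1, an inhibitor of Wnt ligands, held 36 counts and was at least 16.5-fold lower (adjusted p = 0.00169). Plpp4, a lipid phosphatase, held 25 counts and was at least 11.5-fold lower (adjusted p = 0.000399), and the protocadherins Pcdhac2 and Pcdha2, whose cluster shares 3′ exons so that their counts are uncertain, held 28 and 23. The part of these cells in the falls of mitosis genes, homeostatic genes and Aldoc was not tested; oligodendrocyte lineage and astrocyte sums moved in the same direction in the same libraries.

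**Figure D4:**
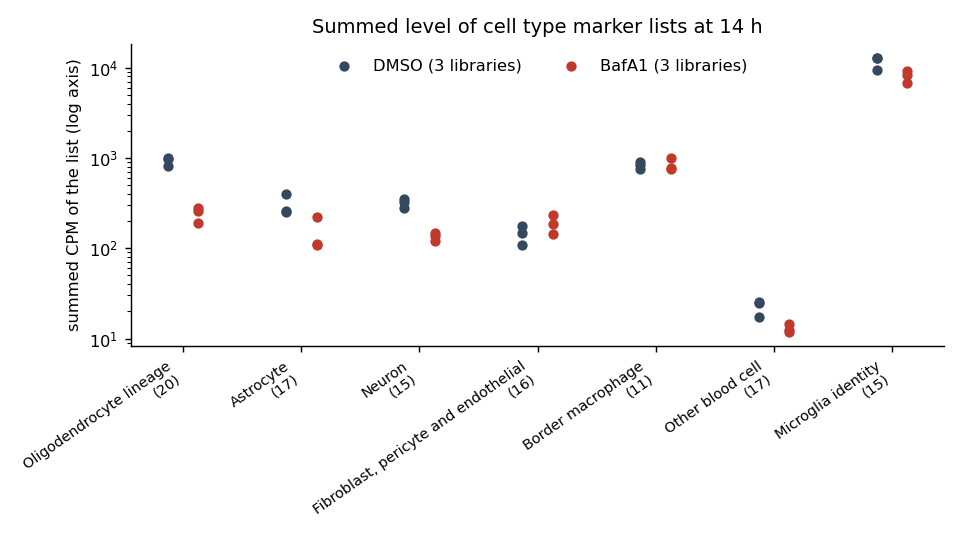
Points give the summed CPM of 7 marker lists in each library at 14 h on a log axis, with the number of list members in parentheses. The oligodendrocyte lineage list falls from between 809 and 1004 CPM with DMSO to between 192 and 281 CPM with BafA1, while the fibroblast and border macrophage lists overlap between treatments.

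The 14 h libraries lay between 2 other times with vehicle groups of their own. At 7 h 578 genes rose (4.57%) and 325 fell (2.57%), and at 22 h 2270 rose (17.9%) and 2780 fell (22%). Of the genes that rose at 14 h 481 had risen at 7 h, 31.5% of the 14 h rises and 83.2% of the 7 h rises; of those that fell 250 had fallen at 7 h, 16.4% and 76.9%. With 22 h, 1193 rises were shared (78.2% of those at 14 h and 52.6% of those at 22 h) and 1301 falls (85.1% and 46.8%). At 14 h alone 270 genes were called higher and 208 lower, which does not show that their effect was absent at the other times. Genes that rose at 14 h and fell at 22 h numbered 7, and none fell at 14 h and rose at 22 h.

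The change of the BafA1 effect itself was tested between times, in the same fit. From 7 to 14 h it changed in 286 genes (2.26%), 93 upward and 193 downward, and in 891 with the replicate number as a block. Without BafA1 replicate 2 the count was 143, without DMSO replicate 2 164, without BafA1 replicate 1 180 and without DMSO replicate 3 189. Slc7a11 had an effect of 1.49 at 7 h and 4.44 at 14 h (adjusted p of the difference = 2.31e-05), Gclm of 0.24 and 1.77 (0.000215) and Mmp12 of 0.98 and 4.41 (9.06e-05). Procr went from -0.39 at 7 h to 3.01 at 14 h (0.00127) and stayed at 3.00 at 22 h. These are genes whose rise was larger at 14 h than at 7 h. Downward, Cenpa went from -0.01 to -2.49 (0.000784), Slc9a9 from -0.25 to -3.03 (0.000144) and Nnat, a small membrane protein of neural cells, from -0.22 to -2.30 (3.31e-06). By list, hypoxia genes had 15 of 30 higher at 7 h and 19 at 14 h, endoplasmic reticulum chaperones 1 of 19 and 15, and mitosis genes none and 17 of 28 lower.

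From 14 to 22 h the effect changed in 251 genes (1.98%), 53 upward and 198 downward, and in 789 with the replicate number as a block. Without DMSO replicate 1 the count was 121, without BafA1 replicate 2 152 and without BafA1 replicate 1 166. Hspa5 went from 1.24 at 14 h to 2.22 at 22 h (adjusted p of the difference = 0.000971) and Dnajb9, a co-chaperone of BiP, from 0.96 to 2.46 (0.00259), both further upward. Idi1 went from 1.26 to -0.34 (0.0174), and 18 of 26 cholesterol genes rose at 7 h, 11 at 14 h and 4 at 22 h. Of these 26 genes none fell at 7 h, 1 at 14 h and 7 at 22 h. Over all genes tested 4.57%, 12.1% and 17.9% rose at 7, 14 and 22 h, and 2.57%, 12.1% and 22% fell. At 22 h both cholesterol counts lay near these shares. Il1b fell further, from -1.73 to -4.65 (0.00259), and so did Cx3cr1, from -1.66 to -3.12 (0.00534), and Mef2c, from -2.20 to -3.99 (0.00948). For Tnf, called at 14 h, the effect was 0.48 at 7 h and 0.51 at 22 h, and neither difference from 14 h passed the test (adjusted p = 0.134 and 0.157).

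**Figure D5:**
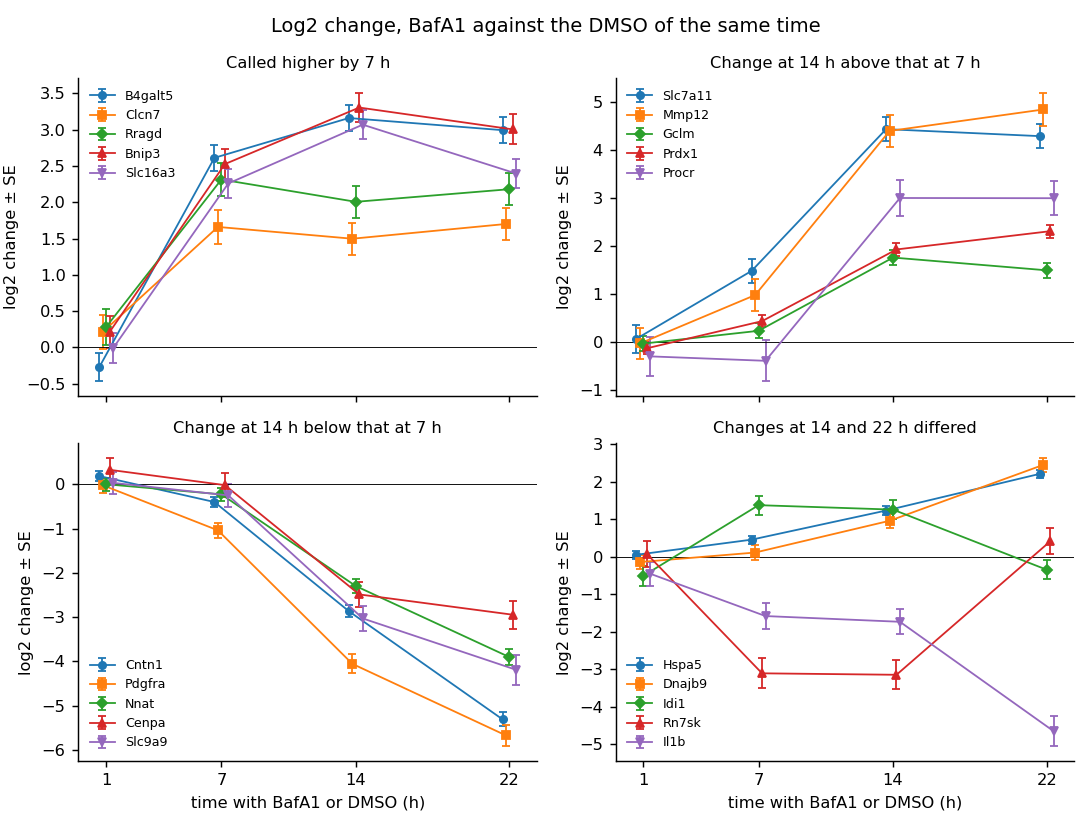
Points give the log2 change of 20 genes, BafA1 against the DMSO group of the same time, at 1, 7, 14 and 22 h, with bars of 1 SE. The upper left genes are called higher at 7 h already, the upper right genes climb between 7 and 14 h, the lower left genes fall between 7 and 14 h, and the lower right genes differ between 14 and 22 h.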

How the data were processed

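Libraries were made with a QuantSeq 3′ kit with molecular identifiers and read single-end, per the labels' protocols, so a gene's count does not scale with its length. Salmon quantified reads on build GRCm39, per the submitters' processing notes, which give no version. The authors deposited estimated counts per gene and log2 CPM. Of the count values above 0, 37.1% were not whole, and they were rounded. The deposited log2 CPM differed by at most 0.00121 from values recomputed with trimmed-mean scaling and a prior count of 2, and served only for that check.

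Counts were fitted with edgeR 4.0.16 (limma 3.58.1, R 4.3.3) by the quasi-likelihood test over all 24 libraries, with 8 group terms, its default low-count filter, trimmed-mean scaling and Benjamini-Hochberg adjustment over 12648 genes. The genes filtered out held 0.7% of counts. An SE is the coefficient divided by the root of its F statistic. The fit was tested on simulated data first. Library depth limits precision, and the floor of 3 counts covers counting error only. Samples were grouped by treatment and time as labelled; no column of another sample was used.

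Same-numbered libraries deviated together from their group means at 14 h, with correlations of 0.151, 0.143 and 0.339. Between libraries of different number the correlations ran from -0.214 to 0.065. Those between replicates 1 and 2 were 0.025 and 0.065, and every negative one involved replicate 3. Deviations within a group sum to 0, so the correlations are not independent of each other. The replicate number was therefore also fitted as a block, and values are from the fit without it unless the block is named. The pairing comes from the data, as the labels do not say what a number shares. Alternatives were DESeq2 1.42.0 (its size factors and its test), scaling by library totals, no and stricter count filters, the 6 libraries alone, thinned counts and leaving out each library.

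Members and lists were chosen with earlier results of these data known. Named genes included the 15 largest rises and falls and the 10 most abundant past 2-fold each way. Only for these was the choice limited to calls without overlap that averaged 3 log2 CPM or more. Up to 5 called genes per list were added by size, or the 2 most abundant where fewer than 2 were called. Further additions were the 5 smallest p-values each way for the change between times. The last were the 5 most abundant genes at 0 in 1 treatment. The rule named 324 genes, of which the text describes a part. None of the 50 whose call changed under an alternative is described singly, so the genes described are the more stable ones; the counts over lists include all. Genes outside this rule are marked as such in the text, and some genes are not reported here. The V-ATPase genes that were not called are named to account for the list. Promoters are from RefSeq, build GRCm38.p6; no other coordinates were used.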

Additional observations from a re-analysis of the deposited data

Results flagged for a closer look

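The BafA1 effect differed between 7 and 14 h in 286 genes and between 14 and 22 h in 251, by a test of the difference itself, edgeR's quasi-likelihood interaction contrast with Benjamini-Hochberg adjustment. The 5 smallest p-values in each direction are given as differences of log2 changes.

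From 7 to 14 h the effect moved up by 2.96 for Slc7a11, 1.5 for Prdx1, 3.42 for Mmp12, 1.53 for Gclm and 1.43 for Rnf128, a ubiquitin ligase. It moved by -2.47 for the adhesion gene Cntn1, -3.02 for Pdgfra, -2.77 for the proteoglycan gene Cspg5, -2.07 for Nnat and -3.35 for Ctnna2, a catenin of neurons. Summed oligodendrocyte lineage markers fell in the same libraries, and their part in the last 5 values was not tested.

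From 14 to 22 h the effect moved up by 1.10 for Ghitm, a protein of the inner mitochondrial membrane, 3.56 for Rn7sk, whose count is uncertain, 0.98 for Hspa5, 1.15 for Cyb5r1 and 1.49 for Dnajb9. It moved by -2.44 for Cntn1, -1.71 for the endocytic adaptor gene Dab2, -1.61 for Nnat, -2.04 for the proteoglycan gene Ncan and -1.47 for Pitpnc1, a lipid transfer protein. Groups of 3 libraries were too small to look for single outlying samples.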

How the results depend on the processing

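No called gene among those named by the rule turned direction under any alternative in which it was tested. Of 324 genes named by the rule, 50 crossed the threshold under at least 1 of them, and these are not described singly. Of the 3054 calls, 99.7% were called with DESeq2's size factors, 98.1% with DESeq2, which called 3092, 97.9% with the stricter filter, 93.7% in the 6 libraries alone, 87.8% with library totals, 79.9% without a filter, 72.6% in thinned libraries and 100% with the replicate block over all 24 libraries, where 4166 genes were called. The block in the 6 libraries alone called 4718 genes, 2424 higher and 2294 lower. Beside the block values given in the report (Atp6v1b2, Tfe3, Lamp1, Hif1a and Tyrobp), neither block changed the 14 h call of a gene described singly. Leaving out 1 library gave 2170 to 2636 calls, 1088 to 1404 higher and 1082 to 1256 lower; by more than 2-fold 487 to 631 higher and 871 to 983 lower. The change from 7 to 14 h was called in 435 genes without a filter, 435 with DESeq2, 891 with the replicate block, 174 in thinned libraries and 143 to 246 with 1 library left out. The change from 14 to 22 h was called in 428 genes with DESeq2, 789 with the block, 137 in thinned libraries and 121 to 244 with 1 library left out. Why these counts moved was not tested. With 3 libraries a group, genes near the floor of 0.751 to 1.42 CPM per library carry few counts, and a missed threshold there does not show that nothing changed.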
